A study of Mus musculus with 13 samples.

Results

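The nuclear genes of the mitochondrial respiratory chain were followed in mouse oocytes over the hours after γ-irradiation. They were chosen by symbol alone, as the protein-coding genes that start with Ndufa, Ndufb, Ndufc, Ndufs, Ndufv, Uqcr, Cox4, Cox5, Cox6, Cox7, Cox8 or Atp5. The genes Sdha, Sdhb, Sdhc, Sdhd and Cyc1 were added by name. This gave 95 genes with 94 symbols out of 49585 genes with a sum of reads, of which 21885 are protein-coding. Complex I (NADH dehydrogenase) had 36 genes, complex II (succinate dehydrogenase) 4, complex III (the cytochrome bc1 complex) 9, complex IV (cytochrome c oxidase) 20 and complex V (ATP synthase) 18. The 8 Ndufaf genes, which encode assembly factors of complex I and no subunits, were kept as a class of their own. Ndufa4 and Ndufa4l2 were counted with complex IV, of which the Ndufa4 protein is a subunit.

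The ovaries came from P5 female CD-1 mice, were cultured overnight and were exposed to 0.5 or 0.2 Gy from a caesium source. For each time point 4 ovaries were pooled, and the oocytes were set apart from follicular cells by trypsin and repeated centrifugation, so that the preparation can still hold other cells and a library is not 1 animal. At 0.5 Gy, the libraries of 0, 1 and 4 h were made in duplicate, from what the labels call the first and the second generation. The libraries of 2.5 and 6 h came once, from the second generation. At 0.2 Gy, each of the 5 times of the other dose had 1 library of the third generation, so that dose and generation cannot be told apart. All 13 libraries are from the same strain and culture, there was no unirradiated arm of the later times, and the 0 h libraries serve as the state before irradiation. Nothing in the labels says that the duplicates came from separate animals, so the p-values measure the spread between these libraries only.

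The respiratory chain passes electrons from NADH and succinate through complexes I and II to ubiquinone, then through complex III and cytochrome c to complex IV and oxygen, and the proton gradient built on the way drives the ATP synthase. Its subunits are encoded in both genomes: a small core of complexes I, III, IV and V is made inside the mitochondrion from mitochondrial DNA (mtDNA), while complex II and most subunits are made from nuclear genes and imported. Oocytes hold a large number of mitochondria and rely on oxidative phosphorylation for much of their ATP. Several subunits of complex IV exist as paralogs that differ between tissues.

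The libraries held 15709549 to 30430104 estimated reads, with the lowest total in replicate 2 of 0 h at 0.5 Gy and the next lowest at 25263647. That library also held the highest summed level of the 6 leukocyte markers, at 421 CPM (a gene's reads scaled to a common library total after TMM) against 29.8 to 78.4 CPM in the other libraries. None of the 13 oocyte markers, Ddx4 and Gdf9 among them, was at 0 in any library, and their summed level ran from 3669 to 5571 CPM, beside 1503 to 2392 CPM of the 10 granulosa cell markers, none of which was at 0 either. The 6 red blood cell markers ran from 859 to 6183 CPM, with the highest values in the duplicates of 4 h at 0.5 Gy, and the 8 stroma and theca markers from 1831 to 3585 CPM. In such bulk samples fewer cells of a type and less RNA per cell cannot be told apart. In the study's sequencing overview, the read totals given for the duplicates of 1 and 4 h at 0.5 Gy match the libraries that the labels put in the other generation, so the median over the genes between the generations, and the values of Uqcrfs1, Sdha, Sdhb and Ndufa11, are also given with these numbers crossed.

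The respiratory chain genes were expressed at every time and dose. Their reads made up 1.12 to 1.45% of all reads on genes, with 87 of the 95 at a mean of 10 CPM or more, 53 at 100 or more and 6 at 300 or more. The latter were Atp5a1 and Atp5b, which encode the α and β subunits of the catalytic head of the ATP synthase, Atp5c1, Atp5f1 and Atp5o of its stalks, and Cox4i1 of complex IV. Over the 13 libraries the coefficient of variation of the 87 genes had a median of 17.5%, from 7.50% for Ndufa6 to 50.7% for Ndufb4, both accessory subunits of complex I. The median over all genes at 10 CPM or more was 21.1%.

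Levels were compared between genes as CPM per kilobase of transcript, with the length of each transcript weighted by its reads. All transcripts of a gene were counted, also those not annotated as protein-coding. The share of a gene's reads on protein-coding transcripts ran from 0.95% (Ndufs3) to 100%. It was 6.39% for Cox7a2, 10.6% for Cox7b, 19.5% for Cox6b1 and 36.4% for Ndufab1, so levels and changes of such genes are mostly those of other transcripts. On this scale the highest gene was Cox4i1, at 927 ± 181 CPM per kilobase (SD over 13 libraries), followed by Atp5o at 664 ± 70.5 and Ndufa4 at 639.8 ± 95.8. The ranges of the latter 2 over the libraries overlapped, and their difference within libraries was not tested. By complex, the median over the genes was 161 CPM per kilobase for complex I, 129 for complex II, 212 for complex III, 212 for complex IV and 286 for the ATP synthase. The Ndufaf assembly factors had a median of 21.2 and a range of 10.2 to 64.8. All 8 assembly factors were thus expressed at a lower level than the median subunit of each complex. Of the 4 subunits of complex II, the iron-sulfur subunit Sdhb was at 144 ± 22.8 CPM per kilobase, the membrane anchor Sdhd at 143 ± 22.9, the flavoprotein Sdha at 116 ± 17.8 and the anchor Sdhc at 82.6 ± 8.98. In complex III, Uqcrh, the hinge protein, reached 377 ± 54.2 and Cyc1, the cytochrome c1 that hands electrons to cytochrome c, 48.5 ± 9.44.

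The tissue paralogs of complex IV differed in level when all their transcripts were counted. Cox4i1 stood at 927 ± 181 CPM per kilobase and Cox4i2, a form known from lung and from cells low in oxygen, at 44.6 ± 14.5. Cox6a1 stood at 472 ± 90.8, while the heart and muscle form Cox6a2 was at 0.353 ± 0.314, with 0 to 20 reads in a library. Cox8a stood at 199 ± 38.4, the muscle form Cox8b at 0.285 ± 0.341 with 0 to 10 reads, and Cox8c, known from testis, at 4.51 ± 2.40. The muscle forms Cox6a2 and Cox8b were thus the 2 lowest of the 95. Of the other testis forms, Cox6b2 was at 109 ± 26.2 beside 459 ± 86.0 of Cox6b1, and Cox7b2 at 2.15 ± 1.23 beside 225 ± 55.7 of Cox7b. The share of reads on protein-coding transcripts was 93.3% for Cox6b2 and 19.5% for Cox6b1, and 100% for Cox7b2 and 10.6% for Cox7b. The muscle form Cox7a1 stood at 16.3 ± 3.88, Cox7a2 at 343 ± 42.3 and Cox7a2l, a factor in joining complexes III and IV into supercomplexes, at 198 ± 30.2. Their shares of reads on protein-coding transcripts were 100, 6.39 and 100%. Paralog levels on protein-coding transcripts alone were not compared, and the gaps within these sets may differ there. Cox5a and Cox5b are separate subunits that share a name, and Cox5b was at 376 ± 53.3 and Cox5a at 242 ± 59.2, with overlapping ranges. Ndufa4 exceeded its paralog Ndufa4l2, which was at 10.4 ± 5.72, in every library.

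The 3 genes for the c subunit, which forms the rotor ring of the ATP synthase, were all expressed, at 347 ± 49.7 CPM per kilobase for Atp5g3, 179.5 ± 65.4 for Atp5g2 and 124 ± 34.4 for Atp5g1. The ranges of Atp5g1 and Atp5g2 over the libraries overlapped. Of the 30-base words in the transcripts of Atp5g2, 40.3% also occur in another gene, so that its reads can be split with these copies, and the share was 14.0% for Atp5g1 and 0% for Atp5g3. The plot of paralog levels shows these sets side by side.

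**Figure D1:**
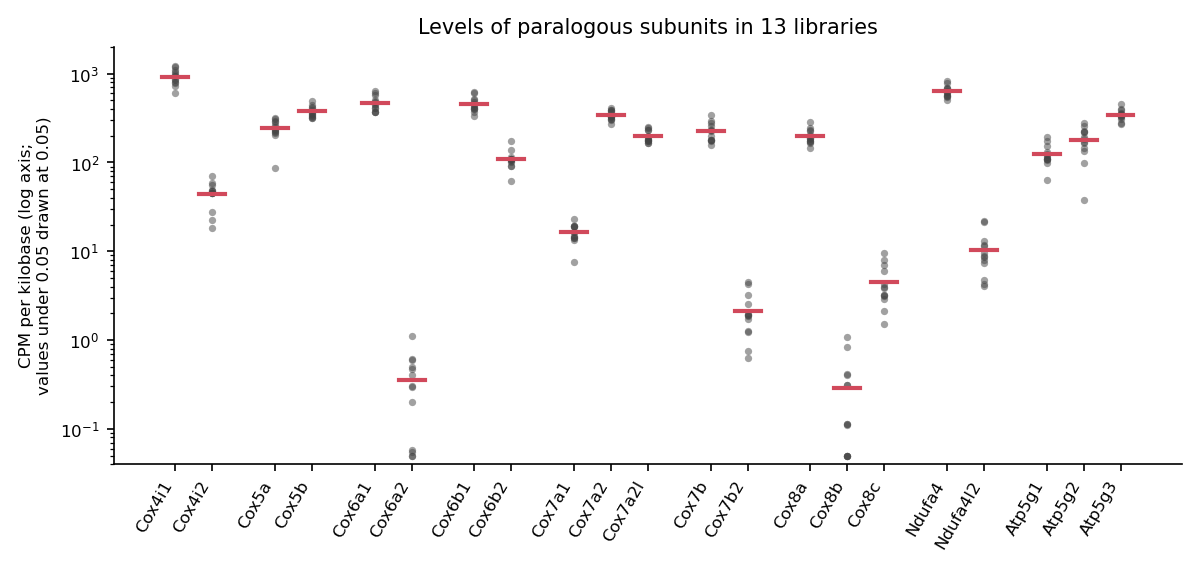
CPM per kilobase (vertical axis, logarithmic) of the subunits of complex IV that share a name and of the c subunit of the ATP synthase, with 1 point per library (13 libraries) and a red bar at the mean; values under 0.05 are drawn at 0.05. Cox4i1 stood highest at 927, and the muscle forms Cox6a2 and Cox8b lay at 0.353 and 0.285.

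The promoters of many respiratory chain genes are known to hold sites for NRF1, for ETS factors such as GABPA (also called NRF2) and for YY1. The promoter windows of RefSeq (GRCm38.p6, 250 bases before to 50 after the start) held an entry for 74 of the 94 symbols and were searched on both strands for the 10-base NRF1 word, written in capitals in Cox6a1 and Sdhd below, for CCGGAAG (ETS) and for ATGGCGGC (YY1). None of these words contains another. The NRF1 word was found in 19 of the 74 (25.7%) and in 5.19% of the 27025 genes with a window. The ETS word was found in 18 (24.3%) and in 9.93% of these genes, and the YY1 word was found in 7 (9.46%) and in 2.60%. In all, 38 of the 74 held at least 1 of the 3 words and 6 held 2 of them, namely Atp5h, Atp5k, Cox6a1, Ndufaf8, Ndufs6 and Sdhd. The 250 bases before the start are shown for Cox6a1 and Sdhd, which hold both the NRF1 and the ETS word there. They are also shown for Atp5e, the gene with the highest log2 fold change in the first against the second generation, as labelled, below. In the window of Uqcrfs1, the gene with the lowest, none of the 3 words was found. The windows of Cox6a1 and Atp5e reach into the gene as drawn in the gene annotation used for the sums. On the minus strand that annotation starts Cox6a1 at base 115348981 and Atp5e at base 174464105. The ETS word of Cox6a1, whose first base is at -16 of the RefSeq start, thus lies inside the gene of that annotation. Capitals mark the NRF1 and ETS words on either strand, and a match in these letters is a description and not a bound site.
Cox6a1 (chr5:115348959-115349208, minus strand): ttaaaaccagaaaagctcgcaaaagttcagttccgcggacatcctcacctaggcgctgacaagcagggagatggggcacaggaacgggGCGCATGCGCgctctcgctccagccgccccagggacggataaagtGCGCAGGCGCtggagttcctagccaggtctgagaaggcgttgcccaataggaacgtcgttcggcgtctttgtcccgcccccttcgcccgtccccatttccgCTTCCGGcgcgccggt
Sdhd (chr9:50603850-50604099, minus strand): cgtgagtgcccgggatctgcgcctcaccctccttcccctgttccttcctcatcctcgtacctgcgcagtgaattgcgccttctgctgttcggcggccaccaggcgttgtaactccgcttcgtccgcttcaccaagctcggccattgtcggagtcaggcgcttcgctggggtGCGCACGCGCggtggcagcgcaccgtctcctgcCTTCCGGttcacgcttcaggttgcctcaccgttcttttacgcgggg
Atp5e (chr2:174464102-174464351, minus strand): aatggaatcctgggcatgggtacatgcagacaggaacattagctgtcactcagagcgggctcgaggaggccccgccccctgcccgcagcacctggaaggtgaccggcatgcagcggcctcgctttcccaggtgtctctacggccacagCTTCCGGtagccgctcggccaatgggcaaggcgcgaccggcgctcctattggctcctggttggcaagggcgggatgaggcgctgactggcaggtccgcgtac

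The time course follows the oocytes from before irradiation over the hours after it. At 0.5 Gy, the 36 genes of complex I summed to 5272 and 3675 CPM (0 h), 5255 and 4230.5 (1 h), 4429 (2.5 h), 4845 and 4611 (4 h) and 4094 (6 h). The first value of each pair is of the first generation, and at each of these 3 times it was the higher one. The sums of the 20 complex IV genes were 3081 and 2274 CPM (0 h), 3304 and 2475 (1 h), 2621 (2.5 h), 2914 and 2704 (4 h) and 2352 (6 h), with the same order within each pair. For the ATP synthase they were 4468 and 3746 CPM (0 h), 4458 and 3831 (1 h), 3981 (2.5 h), 3957 and 4069.5 (4 h) and 3693 (6 h), where the order held at 0 and 1 h and not at 4 h. The sums of complexes II and III ran from 654 to 818 and from 1181 to 1446 CPM over all 13 libraries. The 4 late libraries of 2.5, 4 and 6 h lay within the range of the 4 early libraries of 0 and 1 h for complexes I and IV. For the ATP synthase 3 of them did, and that of 6 h, at 3693 CPM, was below the lowest early one at 3746.

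At 0.2 Gy, all genes together summed to 11707 CPM (0 h), 11995 (1 h), 13006 (2.5 h), 12559 (4 h) and 12663 (6 h). Complex I summed to 3987 CPM (0 h), 4066 (1 h), 4403 (2.5 h), 4222 (4 h) and 4149 (6 h). The ATP synthase summed to 3361 CPM (0 h), 3380.0 (1 h), 3637 (2.5 h), 3691 (4 h) and 3812 (6 h). Both late libraries lay above both early ones for the ATP synthase in these CPM. It kept this order in TPM, at 4833 and 4886 early and 4891 and 5007 late. The TMM factor that enters the CPM was 1.13 and 1.12 early and 1.00 and 0.993 late, and the order of the sums depended on the unit. The share of all reads that fell on the 95 genes was 1.32 and 1.34% early and 1.26 and 1.26% late. Complex I summed to 6333 and 6553 TPM early and to 5993 and 5707 TPM late, so that both late libraries were below both early ones. The summed oocyte markers were at 4339 and 3669 CPM early and 5258 and 4572 late. The red blood cell markers were at 2194 and 2193 CPM early and 4189.8 and 2734 late. Their part in the sums was not tested. Over the 13 libraries the sum of all 95 genes differed by 1.32-fold between the lowest library, 0 h at 0.2 Gy, and the highest, 1 h of the first generation at 0.5 Gy. In the TPM that the authors deposited, which divides by each transcript's effective length, the same sum ran from 16623 to 19539.5 TPM, a 1.18-fold range. Many of these transcripts are near the length of the sequenced fragments, so that their effective length is short and their TPM is sensitive to it.

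**Figure D2:**
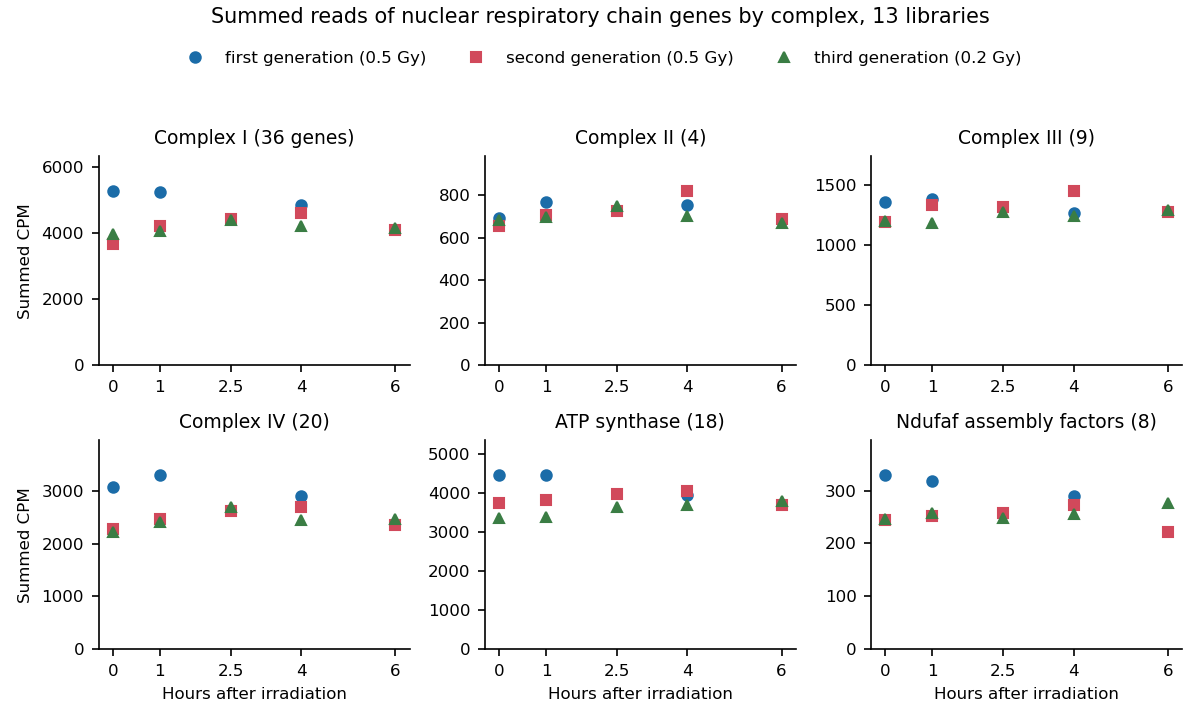
Summed CPM (vertical axes, from 0) of the genes of each complex against hours after irradiation, with 1 point per library: circles for the first and squares for the second generation at 0.5 Gy, triangles for the third generation at 0.2 Gy. For complex I the first generation stood at 5272, 5255 and 4845 CPM at 0, 1 and 4 h, above the second at 3675, 4230.5 and 4611.

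Late against early at 0.5 Gy, none of the respiratory chain genes was called. A call asked for a log2 fold change beyond 1 in either direction at an adjusted p below 0.05 in edgeR's quasi-likelihood test. It was met by 29 of 22588 genes tested (0.128%). The early side held 2 libraries of each generation and the late side 1 of the first and 3 of the second, without a term for generation. Each side pools time points, which are not replicates of a condition. Of the 95 genes, 93 passed the filter on low counts (Cox6a2 and Cox8b did not). Their median log2 fold change was -0.06 against -0.02 for all genes tested, with 34 of 93 above 0 (48.4% of all genes). At an unadjusted p under 0.05, 2 were higher (2.15% of the 93; 4.77% of all genes) and 8 lower (8.6%; 4.29% of all genes). The smallest adjusted p was 0.293. Without replicate 1 of 0 h the median was 0.02 and 2 genes were lower at that p, and without replicate 2 the median was -0.17 and 14 were lower. With protein-coding transcripts only, 92 genes were tested, of which 2 were higher and 5 lower at that p, at a median of -0.07. The late libraries did not overlap the early ones for 2 genes that were higher (3.12% of all genes) and 5 that were lower (2.2%). The median was -0.04 for complex I, 0.04 for II, -0.05 for III, -0.10 for IV, -0.20 for V and 0.01 for the Ndufaf genes. DESeq2's Wald test, in which 203 genes were called, called 1 of the 93, Ndufa4l2.

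**Figure D3:**
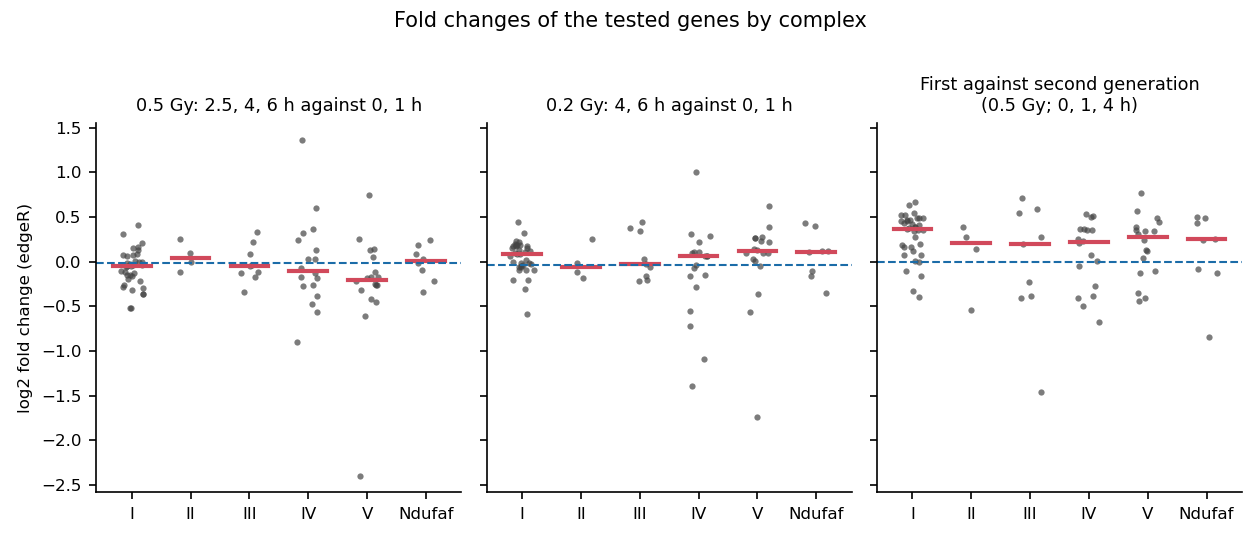
edgeR log2 fold changes (vertical axis) of the tested genes by complex (horizontal axis, with the Ndufaf assembly factors last) in 3 comparisons, with 1 point per gene, a red bar at the median of the complex and a dashed line at the median of all genes tested. Over all these genes together the median lay near the line late against early, at -0.06 at 0.5 Gy and 0.08 at 0.2 Gy. Between the generations it lay above the line, at 0.28. By complex, the ATP synthase (V) had the lowest median late against early at 0.5 Gy, below the line.

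Ndufa4l2 had the highest log2 fold change of these genes late against early at both doses. It encodes a paralog of the complex IV subunit Ndufa4 and is known as a target of the hypoxia-inducible factor HIF-1 that lowers complex I activity. The gene lies at chr10:127514967-127517154 (GRCm38). At 0.5 Gy it was at 3.40 and 3.58 CPM (0 h), 7.22 and 6.57 (1 h), 9.76 (2.5 h), 8.03 and 17.8 (4 h) and 18.1 (6 h). All 4 late libraries lay above all 4 early ones, with means of 5.19 ± 1.99 CPM early and 13.4 ± 5.29 CPM late (SD over 4 libraries each). These SDs mix time points and generations, since the pooled times are not replicates of a condition. The highest early library, at 7.22, was just below the lowest late one, at 8.03. The log2 fold change was 1.36 ± 0.37 (SE; adjusted p = 0.293 in edgeR). DESeq2 gave 1.36 with an adjusted p of 0.0189. Over 15 alternatives the fold change ran from 1.10 to 1.56 and its adjusted p from 0.0189 to 0.681. Within the first generation the mean went from 5.31 to 8.03 CPM and within the second from 5.07 to 15.2. For Ndufa4l2 against 0 h, the times 2.5 and 6 h are 1 library each, and their SE is borrowed from the duplicated times. Against 0 h, its log2 fold change was after 1 h 1.00 ± 0.48 (SE), after 2.5 h 1.51 ± 0.55 (SE), after 4 h 1.91 ± 0.48 (SE) and after 6 h 2.42 ± 0.55 (SE), with adjusted p of 0.603 or more in edgeR. At 0.2 Gy it was at 6.14 CPM (0 h), 3.94 (1 h), 7.29 (2.5 h), 10.9 (4 h) and 9.58 (6 h), again with both late libraries above both early ones. The log2 fold change was 1.01 ± 0.49 (SE; adjusted p = 0.696). The change did not differ detectably between the doses, with a difference of -0.48 ± 0.61 (SE) (0.2 minus 0.5 Gy; adjusted p = 0.864). This difference leaves out 2.5 h at both doses, so it is not that of the 2 changes given above.

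The other gene that was higher at 0.5 Gy without overlap was Ndufv1, the complex I subunit that binds NADH and its flavin. It was at 174 and 121 CPM (0 h), 202 and 172 (1 h), 239 (2.5 h), 204 and 235 (4 h) and 216 (6 h). Its log2 fold change was 0.41 ± 0.16 (SE; adjusted p = 0.484). Replicate 2 of 0 h was the lowest library. At 0.2 Gy, Ndufv1 was at 193 CPM (0 h), 206 (1 h), 212 (2.5 h), 205 (4 h) and 144 (6 h) and the lowest library was that of 6 h. This gave a log2 fold change of -0.20 ± 0.24 (SE) that did not pass the test (adjusted p = 0.871).

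Those lower at 0.5 Gy at an unadjusted p under 0.05 were Ndufb2, Ndufb4 and Ndufc1 of complex I, Uqcrb of complex III, Cox7c of complex IV, and Atp5g1, Atp5k and the second gene entry of Atp5o of the ATP synthase. Ndufb2 was at 66.8 and 58.0 CPM (0 h), 65.1 and 55.0 (1 h), 44.4 (2.5 h), 38.7 and 51.9 (4 h) and 36.9 (6 h). Every late library lay below every early one, and the log2 fold change was -0.52 ± 0.16 (SE; adjusted p = 0.374). Uqcrb, a subunit near the ubiquinone site of complex III, was at 194 and 157 CPM (0 h), 179 and 155 (1 h), 123 (2.5 h), 152 and 139 (4 h) and 128 (6 h). Its early and late libraries did not overlap either, at a log2 fold change of -0.34 ± 0.14 (SE; adjusted p = 0.5). Cox7c was at 129 and 89.2 CPM (0 h), 127 and 98.0 (1 h), 74.3 (2.5 h), 91.0 and 78.2 (4 h) and 76.6 (6 h), and its log2 fold change was -0.47 ± 0.16 (SE; adjusted p = 0.44). Its early and late libraries did not overlap when these 8 libraries were scaled together. On the scale of all 13 libraries, used for the values printed here, 4 h of the first generation at 91.0 CPM lay just above replicate 2 of 0 h at 89.2. Atp5g1 (-0.61 ± 0.25 (SE)) and Atp5k (-0.45 ± 0.17 (SE)), a subunit of the membrane part, overlapped between early and late libraries. The log2 fold change of the second Atp5o entry, -2.39, rests on 0 to 144 reads in a library, and 94.2% of its 30-base words occur in another gene. The share of such words was 32.9% for Uqcrb and 24.7% for Cox7c, whose reads can likewise be split with copies, and 2.73% for Ndufb2. Of the reads of these genes, 8.92% fell on protein-coding transcripts for Cox7c, 6.44% for Ndufb4, 30.4% for Ndufc1 and 76.7% for Ndufb2. For Uqcrb, Atp5g1, Atp5k and the second Atp5o entry it was 98.8 to 100%. Among the low paralogs, Cox7a1 was at 6.59 and 7.56 CPM (0 h), 7.54 and 9.22 (1 h), 6.46 (2.5 h), 2.96 and 5.81 (4 h) and 5.82 (6 h). Its log2 fold change was -0.56 ± 0.31 (SE; adjusted p = 0.628), and Cox7b2 had -0.90 ± 0.58 (SE; adjusted p = 0.681).

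Late against early at 0.5 Gy, the shorter genes had the lower fold changes. The late side held more libraries of the second generation than the early side, so that time and generation are mixed here. The read-weighted transcript length of the 95 genes had a median of 651 bases (range 330 to 2661), against 2700 for protein-coding genes at 1 CPM or more. Of the 47 tested genes at or below 651 bases, 9 were higher late, with a median log2 fold change of -0.17, and of the 46 longer ones 25 were higher, with a median of 0.04. Among all other protein-coding genes, the 501 at or below this length had a median of -0.09 and the 16416 longer ones 0.0034. Across genes, Spearman's rho of length with log2 fold change was 0.42 over the 93 respiratory chain genes and -0.0925 over the 16917 others, of the opposite sign. At 0.2 Gy the medians of the shorter and the longer respiratory chain genes were 0.10 and 0.07. The part of length and of generation in these fold changes was not tested.

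**Figure D4:**
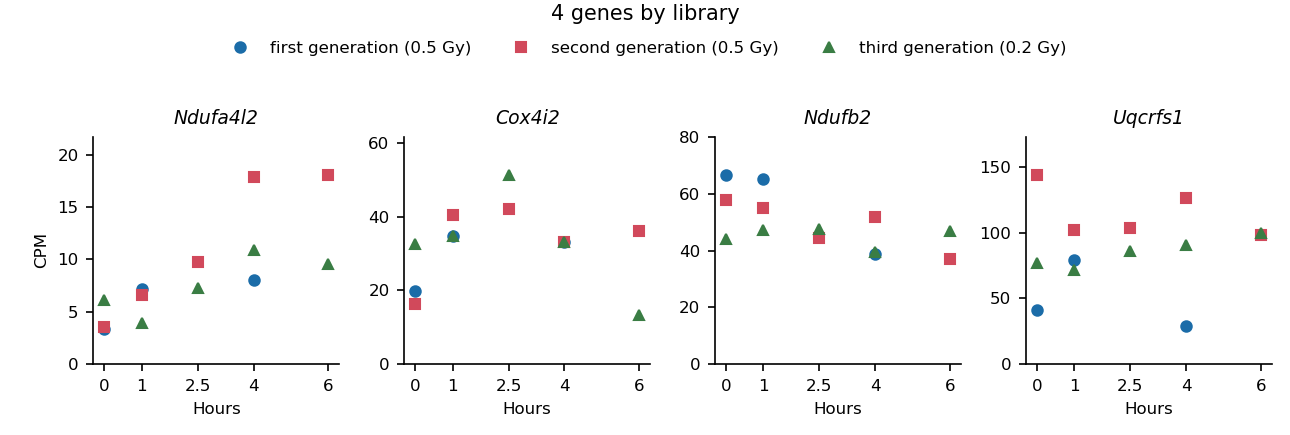
CPM (vertical axes, from 0) of Ndufa4l2, Cox4i2, Ndufb2 and Uqcrfs1 against hours after irradiation, with 1 point per library: circles for the first and squares for the second generation at 0.5 Gy, triangles for the third generation at 0.2 Gy. Ndufa4l2 went from 3.40 and 3.58 CPM at 0 h to 18.1 at 6 h of 0.5 Gy, and Uqcrfs1 was lower in the first than in the second generation at 0, 1 and 4 h.

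Each time point of 0.5 Gy was also compared with 0 h, where all 95 genes passed the filter. The times 2.5 and 6 h had 1 library each. Their SE and p-values, also those of Cox4i2 below, thus take the spread of the duplicated times. No gene at all was called in edgeR at any of these times (0% of 28468 genes), and DESeq2 called Ndufa4l2 at 4 and 6 h and none of the 95 at 1 and 2.5 h. The median log2 fold change of the 95 was 0.08 (1 h), -0.02 (2.5 h), 0.08 (4 h) and -0.15 (6 h). At an unadjusted p under 0.05, 2 were higher at 1 h (2.17% of all genes), 4 at 2.5 h (3.01%), 3 at 4 h (3.43%) and 3 at 6 h (3.63%). In the same order, 0, 0, 0 and 1 were lower (1.81, 2.57, 2.4 and 2.31% of all genes). These comparisons share the 0 h libraries, and their medians and counts depended on them. Without replicate 1 of 0 h, 13 genes were higher at that p at 1 h, 8 after 2.5 h, 15 after 4 h and 8 after 6 h. At 1 h the median was 0.29 without replicate 1 of 0 h and -0.12 without replicate 2. At 6 h the median was 0.07 without replicate 1 of 0 h and -0.38 without replicate 2, and at 4 h 0.28 and -0.18.

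Within 0.5 Gy, Cox4i2 and Atp5g2 were lower in both 0 h libraries than in any later one. Cox4i2 was at 19.9 and 16.3 CPM (0 h), 34.9 and 40.5 (1 h), 42.2 (2.5 h), 33.2 and 33.2 (4 h) and 36.1 (6 h). The log2 fold change against 0 h was after 1 h 1.08 ± 0.29 (SE), after 2.5 h 1.24 ± 0.34 (SE), after 4 h 0.90 ± 0.29 (SE) and after 6 h 1.04 ± 0.34 (SE), with unadjusted p of 0.00456, 0.00491, 0.0121 and 0.0132 and adjusted p of 0.775 or more. At 0.2 Gy it was at 32.7 CPM (0 h), 34.8 (1 h), 51.5 (2.5 h), 33.1 (4 h) and 13.4 (6 h), and the lowest library was that of 6 h. Atp5g2 was at 66.4 and 18.6 CPM (0 h), 107 and 83.7 (1 h), 111 (2.5 h), 90.6 and 136 (4 h) and 125 (6 h). The 0 h duplicates differed widely, and the log2 fold change of Atp5g2 at 1 h was 2.36 without replicate 1 of 0 h and 0.55 without replicate 2. At 0.2 Gy it was at 81.1 CPM (0 h), 94.9 (1 h), 109 (2.5 h), 71.5 (4 h) and 48.4 (6 h), with both late libraries below both early ones, a log2 fold change of -0.57 ± 0.54 (SE; adjusted p = 0.838). The difference between the doses in the change to 4 and 6 h was -1.33 ± 0.67 (SE; adjusted p = 0.632).

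At 0.2 Gy, 4 and 6 h against 0 and 1 h, no respiratory chain gene was called either, where 13 of 28162 genes (0.0462%) were. Since each time of 0.2 Gy had 1 library, this contrast was taken from a fit of both doses without 2.5 h. Its SE and p-values thus rest on a spread shared with the 0.5 Gy libraries. DESeq2 called none of the 94 genes tested. Their median log2 fold change was 0.08 against -0.03 for all genes, and 55 of 94 were above 0 (47.7% of all genes). At an unadjusted p under 0.05, Ndufab1 and Uqcrb were higher (3.03% of all genes) and Cox6b2 and Cox8c lower (4.26%). With 2 libraries a side, 29 genes were higher without overlap (20.1% of all genes) and 17 lower (26.4%), and 10 of the 18 ATP synthase genes were among the former. Ndufab1, the mitochondrial acyl carrier protein that is also a subunit of complex I, was at 97.3 CPM (0 h), 118 (1 h), 119 (2.5 h), 144 (4 h) and 151 (6 h). Its log2 fold change was 0.44 ± 0.19 (SE; adjusted p = 0.677). Uqcrb was at 136 CPM (0 h), 135 (1 h), 183 (2.5 h), 159 (4 h) and 213 (6 h). Its log2 fold change was 0.45 ± 0.20 (SE; adjusted p = 0.679), the opposite sign to 0.5 Gy. Cox6b2 was at 60.2 CPM (0 h), 75.6 (1 h), 47.2 (2.5 h), 43.7 (4 h) and 39.3 (6 h), which gave a log2 fold change of -0.72 ± 0.26 (SE; adjusted p = 0.638). Atp5s, a factor that couples the ATP synthase, was at 14.2 CPM (0 h), 20.7 (1 h), 15.4 (2.5 h), 23.4 (4 h) and 30.8 (6 h). Its log2 fold change was 0.62 ± 0.30 (SE; adjusted p = 0.696). Under library sizes without a composition factor the median of all genes fell to -0.19 and that of the 94 to -0.09, so that the genes stayed above the median of all genes while their sign turned.

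Whether the late change differed by dose (0.2 minus 0.5 Gy) was tested with an interaction term, which none of the 94 genes passed. Late meant 4 and 6 h at both doses in this test, without the 2.5 h libraries. Of all genes, 9 of 28162 (0.032%) were called, and DESeq2 called none of the 94. The median difference was 0.15 against -0.05 for all genes tested, with 6 higher at an unadjusted p under 0.05 (4.2% of all genes) and 1 lower (3.93%). With library sizes only, 0 were higher and 5 lower, at a median of -0.0705 against -0.27 for all genes. The 6 higher ones under TMM were Atp5f1, Atp5g3, Cox7c, Ndufab1, Ndufc1 and Uqcrb, and the lower one was Cox6b2. For Uqcrb the difference was 0.74 ± 0.25 (SE; adjusted p = 0.545) and for Cox6b2 -0.97 ± 0.32 (SE; adjusted p = 0.543). Since the 0.2 Gy libraries are all of the third generation, the dose cannot be told apart from the generation here.

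Within 0.5 Gy, most respiratory chain genes had higher values in the first than in the second generation. This comparison was added after the data were seen and used the 6 libraries of 0, 1 and 4 h, with time and generation as terms. Of 93 genes tested, 69 were higher in the first generation (49.9% of all genes), and the median log2 fold change was 0.28 against -0.0018 for all 22715 genes tested. At an unadjusted p under 0.05, 21 were higher (4.52% of all genes) and 4 lower (5.66%). The 3 libraries of 1 generation did not overlap those of the other for 43 genes higher in the first (8.62%) and 8 lower (8.45%). None was called in edgeR (0.0924% of all genes), with a smallest adjusted p of 0.285, and DESeq2 called 1, Uqcrfs1. The medians were 0.37 for complex I, 0.21 for II, 0.20 for III, 0.22 for IV, 0.28 for V and 0.25 for the Ndufaf genes. The median was 0.18 without replicate 1 of 0 h, where 6 genes were higher at an unadjusted p under 0.05, and with the numbers of 1 and 4 h crossed it was 0.04, with none of the 93 at an unadjusted p under 0.05.

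The highest log2 fold change was that of Atp5e, the ε subunit in the central stalk of the ATP synthase, at 265 and 111 CPM (0 h), 228 and 151 (1 h), 183 (2.5 h), 194 and 135 (4 h) and 155 (6 h). The first value of each pair was the higher one, and the log2 fold change was 0.77 ± 0.20 (SE; adjusted p = 0.333). With the numbers of 1 and 4 h crossed, the order within these pairs would turn at 1 and 4 h and stay at 0 h. Uqcr11 (0.71 ± 0.25 (SE)) and Ndufa11 (0.66 ± 0.26 (SE)), both small accessory subunits, had the next highest fold changes as labelled. The lowest was that of Uqcrfs1, the Rieske iron-sulfur protein through which electrons enter the high-potential path of complex III. It lies at chr13:30540308-30545362 (GRCm38) and was at 41.3 and 144 CPM (0 h), 79.1 and 102 (1 h), 103 (2.5 h), 28.9 and 127 (4 h) and 98.3 (6 h). The 3 libraries of the first generation lay below all others of 0.5 Gy. The log2 fold change was -1.46 ± 0.34 (SE; adjusted p = 0.285 in edgeR), and DESeq2, which called it, gave -1.46. Over 12 alternatives its adjusted p ran from 1.52e-07 to 0.999. None of its 30-base words occurs in another gene. With the numbers crossed its fold change was 0.24. At 0.2 Gy, Uqcrfs1 ran from 71.8 to 99.7 CPM. Sdha, the flavoprotein of complex II, also was lower in the first generation, at 175 and 260.2 CPM (0 h), 203 and 274 (1 h), 285 (2.5 h), 215 and 321 (4 h) and 278 (6 h), a log2 fold change of -0.54 ± 0.16 (SE; adjusted p = 0.393). Sdhb was higher in it, at 0.39, so that subunits of 1 complex differed in sign between the generations. Atp5b, the catalytic β subunit, was lower as well, at -0.41 ± 0.17 (SE; adjusted p = 0.472). With the numbers crossed, the log2 fold change was 0.14 for Sdha, -0.0419 for Sdhb and 0.26 for Ndufa11. The medians and sums by complex, the counts without overlap and the split by length were computed for the generations as labelled only. For Atp5e, Uqcr11 and Atp5b the fold change is given as labelled only.

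The shorter genes had the higher fold changes here. At or below 651 bases, 39 of 47 genes were higher in the first generation (median 0.34), and above it 30 of 46 (median 0.20). The 497 other protein-coding genes at or below this length had a median of 0.28, and the 16443 longer ones of -0.04. The 99 cytosolic ribosomal protein genes tested, which are also short, had a median of 0.30 and the 78 mitochondrial ones 0.29, whereas the 16 genes of the citric acid cycle had -0.25. The difference between transcript length and effective length, which follows the fragment length of a library, had a median of 322, 307 and 317 bases in the first generation at 0, 1 and 4 h and of 400.4, 297 and 286 bases in the second. The part of transcript or fragment length in the difference was not tested. Within each generation, the median over 93 genes of late over early at 0.5 Gy was -0.18 (log2) in the first, with 1 late library, and 0.10 in the second, with 3. The late times differ between these values (4 h against 2.5, 4 and 6 h), so that time and generation cannot be told apart here.

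**Figure D5:**
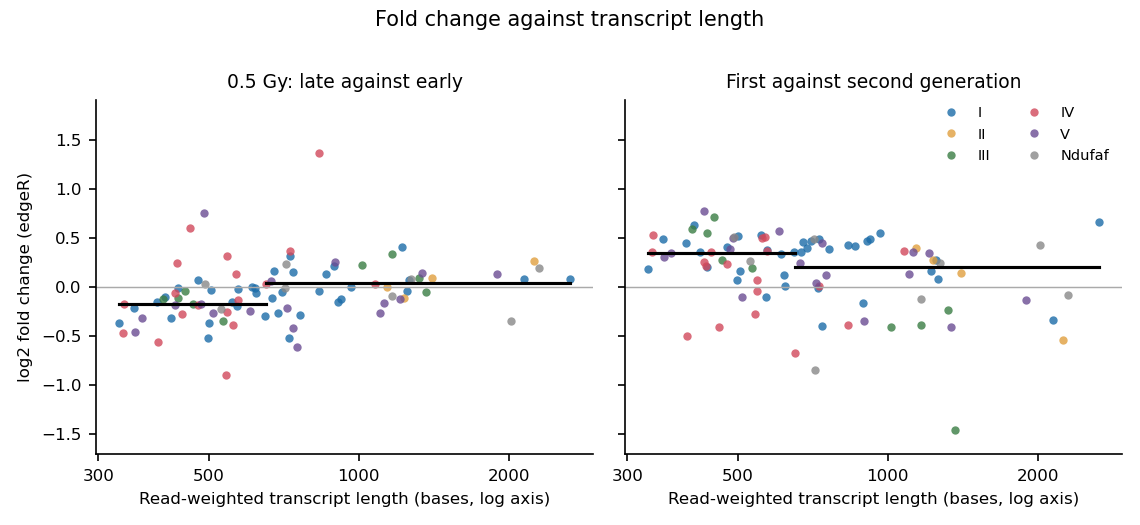
edgeR log2 fold change (vertical axis) against read-weighted transcript length in bases (horizontal axis, logarithmic) for the tested genes, coloured by complex, late against early at 0.5 Gy on the left and in the first against the second generation on the right; black bars are the medians at or below and above 651 bases, and the second Atp5o entry, at -2.39 on the left, is not drawn. The bars stand at -0.17 and 0.04 on the left and at 0.34 and 0.20 on the right.

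The 13 subunits encoded in mtDNA, which are not among the 95, gave more reads than the nuclear genes together and differed 2.21-fold between the lowest and the highest library. Their sum was 36492 and 40736 CPM (0 h), 35268 and 33212 (1 h), 19765 (2.5 h), 33450 and 43694 (4 h) and 22776 (6 h) at 0.5 Gy. At 0.2 Gy it was 21256 CPM (0 h), 24985 (1 h), 39400.3 (2.5 h), 32189 (4 h) and 33538 (6 h). Divided by the sum of the nuclear genes, this gave a ratio of 1.48 at 2.5 h of 0.5 Gy to 3.46 in replicate 2 of 0 h at 0.5 Gy. The 4 lowest ratios were those of 2.5 and 6 h at 0.5 Gy and of 0 and 1 h at 0.2 Gy. All 13 had a log2 fold change below 0 late at 0.5 Gy (median -0.32; mt-Nd2 lowest at -0.56) and above 0 at 0.2 Gy (median 0.45; mt-Nd3 highest at 1.70), but none was called, with smallest adjusted p of 0.495 and 0.494. At an unadjusted p under 0.05, 2 of 13 were lower at 0.5 Gy (4.29% of all genes) and 3 of 13 higher at 0.2 Gy (3.03%).

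Late against early at 0.5 Gy, none of the other lists of the pathway held a called gene. Of all genes tested, 4.77% were higher and 4.29% lower at an unadjusted p under 0.05, which is the background of the counts that follow. Among 38 tested assembly factors of complexes I to V outside the Ndufaf class, 2 were higher and 2 lower at an unadjusted p under 0.05, with a median of -0.04 (Foxred1 highest at 0.69 and Coa6 lowest at -0.48). Foxred1 helps to build complex I and Coa6 carries copper to complex IV. Among 15 genes of the mobile carriers and of ubiquinone synthesis, 1 was higher and 2 lower (median 0.22; Coq10a highest at 0.56 and Cycs lowest at -0.67), where Cycs encodes somatic cytochrome c. Among 20 regulators of mitochondrial biogenesis and mtDNA expression, 0 were higher and 3 lower (median -0.11; Esrra highest at 0.75 and Mterf1a lowest at -0.52), where Esrra is a nuclear receptor that acts on genes of oxidative metabolism. Among 16 genes of the citric acid cycle, which supplies the chain with electrons, 1 was higher and 0 lower (median 0.06; Dlst highest at 0.43 and Pdha1 lowest at -0.11). The mitochondrial ribosomal protein genes, which make the mtDNA-encoded subunits, had a median of -0.03, with 1 of 78 higher and 1 lower, and the cytosolic ones -0.19, with 2 of 99 higher and 21 lower.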

How the data were processed

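RNA of 13 oocyte libraries was sequenced as short paired-end reads after cDNA synthesis with a SMARTer kit. The authors quantified transcripts with Salmon against mouse cDNA of GRCm38 and deposited, for each library, estimated counts and TPM per transcript, with transcript and effective lengths. They also deposited 5 tables of their own comparisons, which hold log2 fold changes and p-values and were not used here.

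Estimated counts were summed per gene with the gene annotation of the reference and rounded to whole numbers. The 402 transcripts without a gene held 0.318 to 0.495% of the reads and were left out. Genes were filtered with filterByExpr, scaled by TMM and tested with edgeR 4.0.16 (R 4.3.3) by the quasi-likelihood test, with p-values adjusted by Benjamini-Hochberg over all genes tested, and DESeq2 1.42.0 was an alternative. A call needed a log2 fold change beyond 1 in either direction at an adjusted p below 0.05. Late meant 2.5, 4 and 6 h at 0.5 Gy and 4 and 6 h at 0.2 Gy, and early meant 0 and 1 h. In the test of the difference between the doses, late meant 4 and 6 h at both doses, without the 2.5 h libraries. The fits were tested on simulated data. Log2 fold changes carry the standard error of the fit, and estimated reads split between similar transcripts are less precise than their counts.

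The genes, lists and tests were chosen with earlier results of these data known. Genes were named where they belong to complex II, are Cyc1, have paralogs in complex IV or the c subunit, have the highest or lowest level of a complex, or have the largest changes late against early, and in each other list the highest and lowest were named. Further genes, such as those at an unadjusted p under 0.05 and those of the generation comparison, were named after their values were seen. Over all genes, the deviations of libraries with the same replicate number correlated at 0.115 (0 and 1 h), 0.0716 (0 and 4 h) and 0.0991 (1 and 4 h), so the numbers were not taken to pair the libraries. Over the respiratory chain genes alone these correlations were larger and differed in sign, at 0.245, 0.377 and -0.355.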

Additional observations from a re-analysis of the deposited data

How the results depend on the processing

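Of the values that answer a comparison, 237 of those recomputed under an alternative stayed on the same side of their threshold or within 1 SD, 12 moved by more and 5 gained a call. Some medians near 0 changed sign. DESeq2's Wald test called 1 gene in place of 0 late against early at 0.5 Gy, at 4 h and 6 h against 0 h (Ndufa4l2 each time) and between the generations (Uqcrfs1), and without a filter on low counts edgeR called 1 between the generations. Leaving out 1 library, the median log2 fold change late against early at 0.5 Gy ran from -0.17 to 0.019. Against 0 h it ran from -0.25 to 0.20 at 2.5 h, from -0.18 to 0.28 at 4 h and from -0.38 to 0.068 at 6 h, with the ends set by which 0 h library was left out. With library sizes only, the median dose difference was -0.071, and late against early at 0.2 Gy it was -0.087. With CPM in place of summed TPM, the log2 of late over early at 0.2 Gy was 0.056 for complex I, 0.092 for III, 0.080 for IV and 0.15 for V, and -0.13 for the Ndufaf genes at 0.5 Gy. The cause of these shifts was not tested.

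With generation as a replicate block, the median late against early at 0.5 Gy was 0.020, and none of the respiratory chain genes was called in any comparison, as without it. Over all genes, the block took the calls from 29 to 18 late against early at 0.5 Gy, and from 0 to 1, 6 and 7 at 2.5, 4 and 6 h against 0 h. With the numbers of 1 and 4 h crossed it was -0.06, and the median between the generations was 0.041. The shared numbers were not taken as pairs, since only 1 of the 3 correlations over all genes was over 0.1.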
